A study of Mus musculus with 16 samples.

Results

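The pancreas stores its protein-digesting enzymes as inactive precursors, and this account concerns the trypsinogens Prss1, Prss2, Prss3, Try4, Try5 and Try10, the chymotrypsinogens Ctrb1, Ctrl and Ctrc, and the trypsin inhibitor Spink1. The members were taken by gene symbol from the deposited normalized count table, and all 10 of the 10 genes looked for were among its 15156 genes. Total RNA came from whole pancreas of 16 mice, 4 in each of 4 genotype groups, described by the submitters as independent biological replicates. WT mice were wild type and their label names no Cre. DC mice carried Daxx fl/fl with Pdx1-Cre Tg, MC mice carried Men1 fl/fl with Pdx1-Cre Tg, and DMC mice carried Daxx fl/fl, Men1 fl/fl and Pdx1-Cre Tg. All groups, WT included, were aged 6 to 10 weeks and had received caerulein, an analogue of cholecystokinin with which acinar cells are driven past their normal secretion. The dose was 50 ug/kg, given intraperitoneally in 4 hourly injections on 3 days a week for 3 weeks, with collection 5 days after the last. Pdx1-Cre acts in cells of the pancreatic epithelium, while whole pancreas also holds cells in which it does not act. The Cre transgene and the floxed alleles cannot be told apart in any comparison with WT, and the labels used here name no strain.

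Trypsinogen is cut to trypsin by enteropeptidase in the gut lumen, and trypsin then activates the other zymogens, chymotrypsinogen among them. In pancreatitis some trypsinogen is activated inside the acinar cell, where the lysosomal protease cathepsin B can cut it. Spink1, a small inhibitor stored in the same granules, blocks trypsin that forms too early, and chymotrypsin C can degrade trypsinogen and trypsin. The protein DAXX deposits a histone H3 variant, and menin, the product of Men1, is a partner of chromatin-modifying complexes.

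The libraries held 13481063 to 23728309 reads, recovered from the deposited values, and the 10 genes together took 14.1% to 20.5% of the reads of a library. WT averaged 18.03% ± 1.41 (SD, n = 4), DC 16.6% ± 1.73, MC 17.1% ± 1.89 and DMC 17.4% ± 2.15. All 13 acinar markers outside the family were present in every group, with a summed normalized count of 3060680 to 11132800 over the 16 libraries. Normalized counts of Men1, a targeted gene, were 132 ± 13.3 in MC and 168 ± 10.6 in DMC against 368 ± 61.3 in WT and 482 ± 61.9 in DC. Those of Daxx were 223 ± 15.6 in DC and 182 ± 30.4 in DMC against 263 ± 64.97 in WT and 246 ± 26.1 in MC, and a whole-gene count cannot show the loss of floxed exons. WT replicates 2 and 3 carried more lymphoid marker RNA than the others, with 2392 and 4336 summed normalized counts over 8 genes against 123 to 1535 elsewhere.

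The 6 trypsinogens form a cluster on mouse chromosome 6 between 41302269 and 41525079 (GRCm38), each with 5 exons and a coding sequence of 741 bases including the stop codon. The stretch from the start codon to just past the activation site, 81 bases long, is shown because these genes are so alike that it bears on what their counts mean. It encodes the signal peptide and the activation peptide, and the site where trypsinogen is cut lies before codon 24. Capitals mark the bases that differ from Prss2 at the same position.
Prss2: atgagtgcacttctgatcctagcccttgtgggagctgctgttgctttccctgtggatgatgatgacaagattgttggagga
Prss1: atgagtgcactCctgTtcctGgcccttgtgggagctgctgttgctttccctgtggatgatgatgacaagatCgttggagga
Prss3: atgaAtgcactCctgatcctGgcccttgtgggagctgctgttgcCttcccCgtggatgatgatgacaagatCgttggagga
Try4: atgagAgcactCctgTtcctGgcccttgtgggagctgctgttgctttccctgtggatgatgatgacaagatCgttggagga
Try5: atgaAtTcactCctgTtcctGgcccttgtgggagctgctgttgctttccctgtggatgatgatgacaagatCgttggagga
Try10: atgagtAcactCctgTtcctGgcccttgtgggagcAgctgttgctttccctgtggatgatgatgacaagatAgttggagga
The run gatgatgatgacaag before the cut, which encodes the aspartates and the lysine recognised by enteropeptidase, was the same in all 6. The windows of the other genes differed from Prss2 at 4 bases in Prss1, 5 in Try4 and 6 each in Prss3, Try5 and Try10. Over the whole coding sequence Try4 and Try5 were 97.4% identical and Prss1 and Prss3 96.4%. A pair of unlisted trypsinogen-like genes of the cluster were closer still: Gm10334 was 99.1% identical to Prss3 and Gm5771 98.0% to Prss1. Of all 50-base stretches of its transcript, Prss3 shared 66.1% with another gene of the cluster, Try4 64.2%, Prss1 54.9%, Try5 51.5%, Try10 25.4% and Prss2 7.83%, whereas the chymotrypsinogens shared 0%. How reads that match several copies were counted is not given in the sources used here, so the split of counts among Prss1, Prss3, Gm5771 and Gm10334, and between Try4 and Try5, is uncertain.

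Per kilobase of transcript, Ctrb1, the main chymotrypsinogen, was the most abundant member in all 4 groups, with 2235940 ± 657511 normalized counts per kb in WT (SD, n = 4). By group mean Try4 came second in every group, with 898580 ± 257183 in WT, and Try10 last, with 9350 ± 1283 in WT. Single libraries differed at the bottom: Ctrc lay below Try10 in WT replicates 1, 2 and 3 and in DC replicates 1 and 4. Prss1 lay just below Try10 in WT replicate 4. Ctrb1 lay above Try4 without overlap in WT, DC and MC, and above it in each library of DMC although the ranges overlapped. Prss2, Try5 and Ctrl followed Try4 in WT, DC and MC, and Ctrl and Try5 overlapped in WT. By group mean the order changed in its middle in DMC. Prss3 with 171862 ± 106573 normalized counts per kb stood next after Prss2, ahead of Ctrl with 129077 ± 35715. The ranges of Prss3 and Ctrl overlapped, and Prss3 lay above Ctrl in only 1 of the 4 DMC libraries, replicate 3. Spink1 held 21608 ± 4404 per kb in WT, well under Try4, Prss2 and Try5 but above Try10. The plot of member levels shows the spread of each gene over all libraries.

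**Figure D1:**
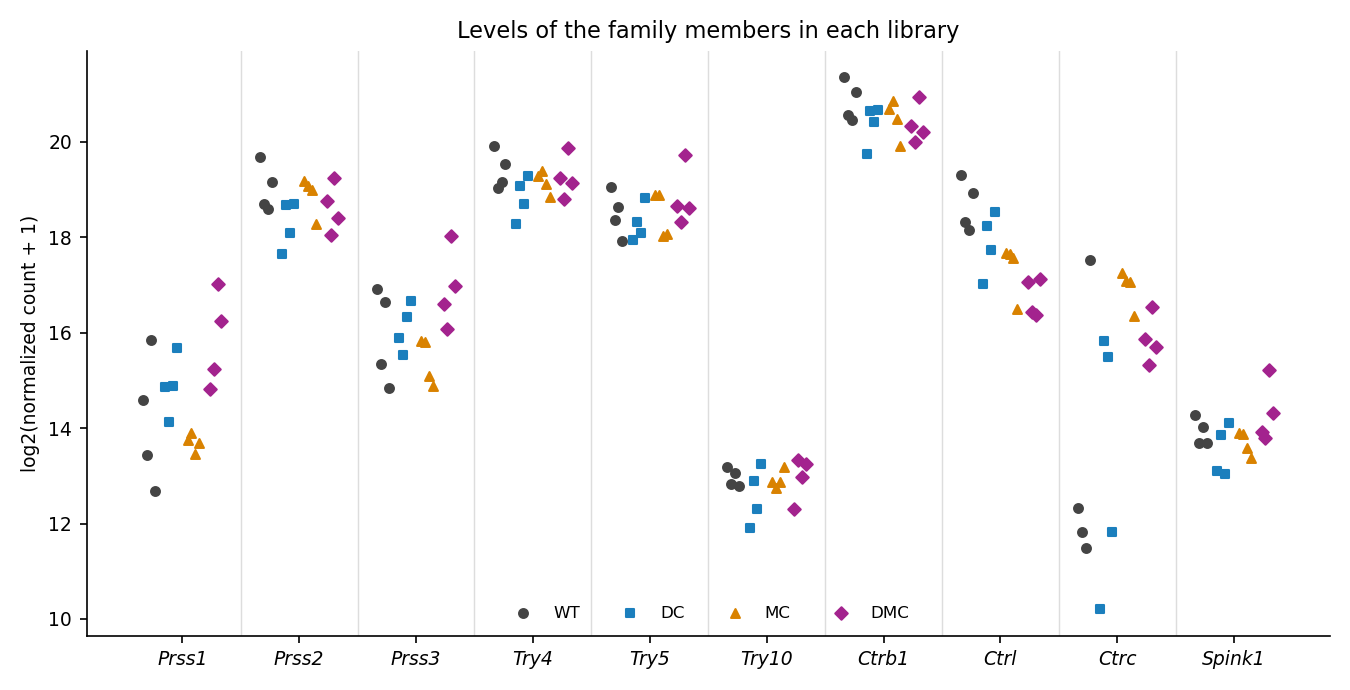
Level of each member, as log2 of the normalized count plus 1, in the 16 libraries, with a symbol per library and a shape per genotype group. Ctrc covers a range of 7.32 log2 units while Try10 covers 1.43.

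Of the digestive protease and inhibitor genes, Ctrl, a chymotrypsin-like protease, was the only one whose level differed between genotypes by limma, and it was lower in DMC than in WT. Each gene was tested with limma on the log2 level, with Benjamini-Hochberg adjustment over 14220 genes and a threshold of 0.05. Of the 10 members, 1 was called in DMC against WT, Ctrl, where 0.788% of all genes were called. No member was called by limma in DC against WT, where 0.0211% of all genes were, and none had an unadjusted p under 0.05. In MC against WT the count was 0 of 10 (0.781% of all genes), with 2 members, Ctrl and Ctrc, under 0.05 unadjusted. In MC against DC it was 0 (1.37%), with 1 under 0.05 unadjusted, Ctrc. In DMC against DC it was 0 (0.534%), with 2 under 0.05 unadjusted, Ctrl and Spink1, and in DMC against MC 0 (0.00703%), with 3, Prss1, Prss3 and Spink1. The interaction, which asks whether the effect of both losses together differs from the sum of the single ones, called 0 members and 0% of all genes, with 1 member, Spink1, under 0.05 unadjusted. On recovered reads edgeR called 1 member, Ctrl, in DMC against WT, where it called 102 of 14220 genes. It called 0 members in the other comparisons, where it called from 0 genes (interaction) to 179 (MC against DC). DESeq2, which called more genes than limma in each of these, called Ctrl in MC against WT (391 of 14220 genes called). It also called Ctrl in DMC against WT (331) and DMC against DC (345), and Prss1 in DMC against MC (56). In bulk tissue, fewer cells of a type and less RNA per cell cannot be told apart.

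The median log2 difference of the 10 members was -0.39 in DC against WT, -0.25 in MC against WT and 0.17 in DMC against WT, beside medians of -0.02 over all tested genes in each. It was 0.17 in MC against DC, 0.48 in DMC against DC and 0.08 in DMC against MC, where the medians of all genes lay within 0.01 of 0.

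**Figure D2:**
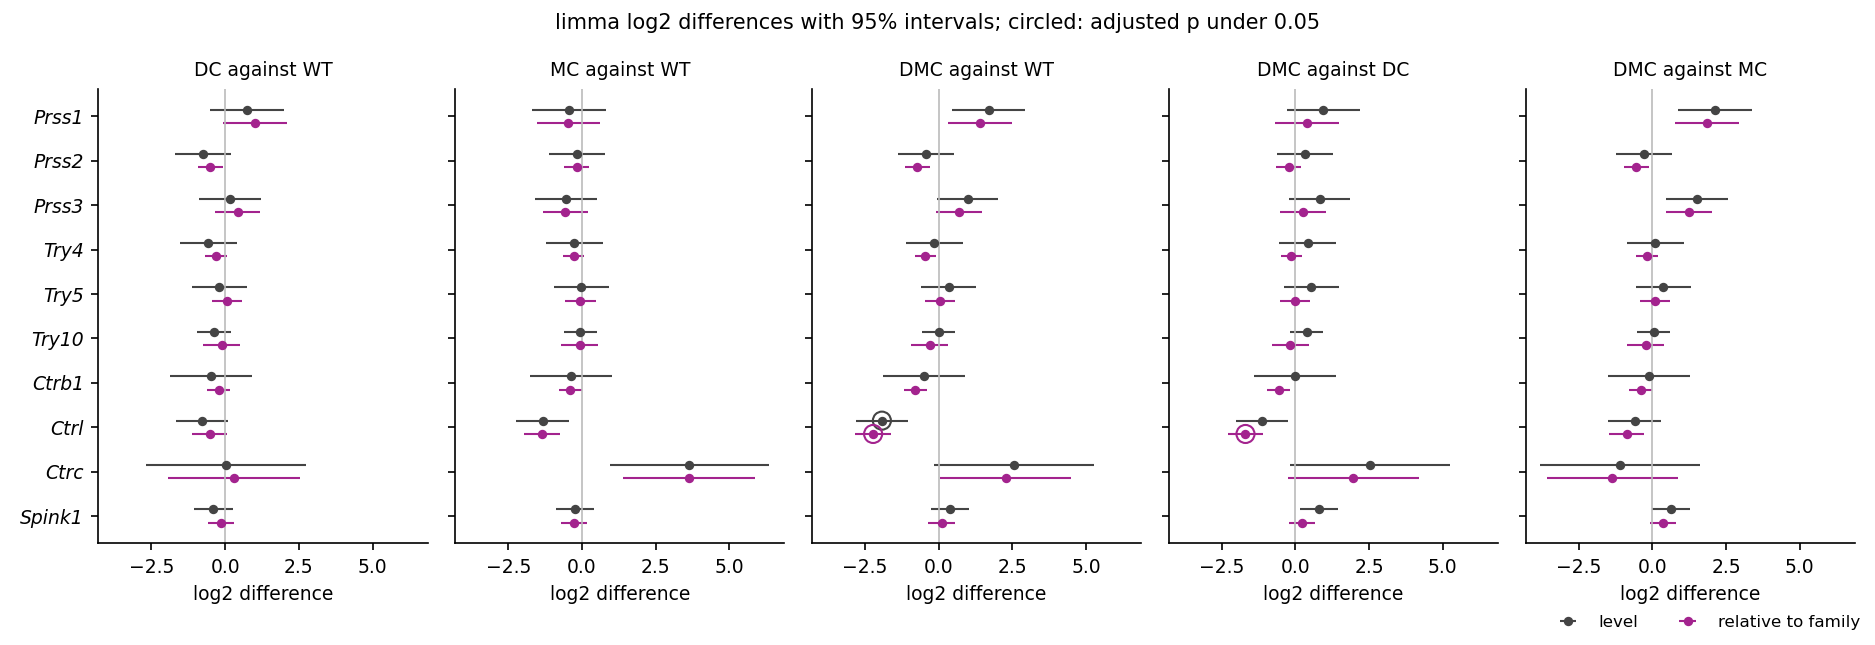
limma log2 differences of the 10 members in 5 comparisons with 95% intervals, from the levels (grey) and from levels relative to the family mean (purple), with circles around those of adjusted p under 0.05. The intervals are somewhat wider than the limma p-values imply. Ctrl is circled on both scales in DMC against WT and on the relative scale in DMC against DC.

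Among the trypsinogens, Prss2, Try4 and Try5 were the most abundant of the 6 listed, and no difference in their levels between groups passed the test. An unlisted trypsinogen of the table, 2210010C04Rik, reached 649452 ± 186514 normalized counts in WT. Mean normalized counts of Prss2 were 563398 ± 206318 (SD, n = 4) for WT, 331651 ± 107817 for DC, 495799 ± 123532 for MC and 420503 ± 151929 for DMC. Try4 had 719763 ± 206003, 485276 ± 140948, 590535 ± 95014 and 651446 ± 214865 in the same order. Their log2 levels correlated across the 16 libraries with r = 0.94, and Prss2 with Ctrb1 at r = 0.91, given as a description of libraries that share animals and depth. The lowest limma adjusted p of Prss2 over the 6 pairwise comparisons was 0.534, in DC against WT, at a log2 difference of -0.76 ± 0.44 (SE).

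Try5 ranged from 249259 to 868859 normalized counts, the highest in DMC replicate 3. Try10, by mean the least abundant of the listed trypsinogens, ranged from 3811 to 10250. Try5 averaged 385065 ± 125988 in WT and 503284 ± 246746 in DMC, a log2 difference of 0.34 with a 95% interval from -0.60 to 1.27 (limma adjusted p = 0.777). Try10 averaged 8041 ± 1103 in WT and 8269 ± 2319 in DMC, a log2 difference of 0.00 with an interval from -0.57 to 0.57 (limma adjusted p = 0.99995).

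Prss1 and Prss3, which code for near-identical trypsinogens, were uneven between groups: both had their lowest mean in MC and their highest in DMC. Prss1 had 24493, 11076, 58963 and 6558 normalized counts in the WT mice, 29678, 17820, 30326 and 52325 in DC, 13816, 15360, 11218 and 13166 in MC, and 28979, 38664, 132810 and 77809 in DMC. WT covered the whole width of the other groups but for the top of DMC, while MC varied by 1.37-fold from lowest to highest. Prss3 had 124185, 41854, 102401 and 29242 in WT, 60558, 47539, 82159 and 104061 in DC, 57848, 57318, 35114 and 30114 in MC, and 99967, 68913, 267462 and 128742 in DMC. Every DMC library lay above every MC library for both genes, 2 of 10 members, where 2.14% of all genes were higher without overlap. Prss1 was also lower in every MC than in every DC library, 1 of 10 members, against 4.29% of all genes.

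In DMC against MC the log2 difference was 2.13 ± 0.57 for Prss1 (SE, limma adjusted p = 0.375) and 1.52 ± 0.48 for Prss3 (limma adjusted p = 0.56), so neither passed over all genes. The DESeq2 test on recovered reads called Prss1 there (log2 difference 2.38, DESeq2 adjusted p = 0.046), where it called 56 of 14220 genes. In DMC against WT Prss1 stood 1.70 ± 0.57 higher (limma adjusted p = 0.219), with overlapping groups. Their counts rose and fell together across the libraries (r = 0.91 between the log2 levels), and Gm10334, near-identical to Prss3, had 9549 ± 2905 normalized counts in MC and 53748 ± 38080 in DMC. Gm5771, near-identical to Prss1, had 31962 ± 9887 in MC and 125476 ± 82537 in DMC. Summing these 4 genes sets aside how counted reads were split among them. It cannot restore any reads left uncounted or counted for genes outside the 4. The sum was 99999 ± 28308 in MC and 390061 ± 253715 in DMC, with 181096 ± 120477 in WT and 194879 ± 74467 in DC. All 4 DMC libraries, from 196797 upward, lay above all 4 MC libraries, at most 126210, also for that sum.

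As a share of the normalized counts of all 10 members, the 6 trypsinogens took 52.2% ± 2.80 in DMC (SD, n = 4), 45.8% ± 2.20 in MC, 42.7% ± 3.22 in DC and 42.1% ± 4.52 in WT. The 4 DMC libraries, from 49.7% to 56.2%, all lay above the other 12, at most 48.7%. A share over members gets no test here, and a higher share is not a higher level. The summed trypsinogen counts were 1172580 to 2856390 in DMC and 1361740 to 2546510 in WT. Those of the 3 chymotrypsinogens were 1172730 to 2186480 in DMC and 1734510 to 3332930 in WT.

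**Figure D3:**
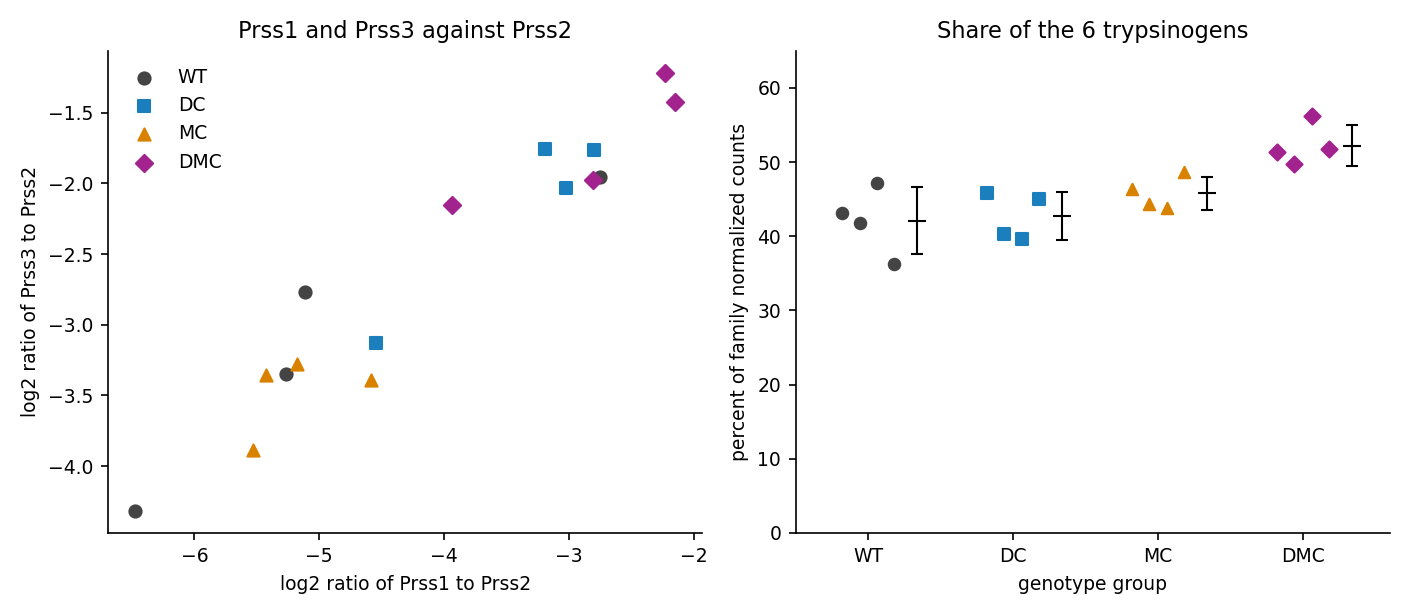
Left, log2 ratio of Prss1 to Prss2 against that of Prss3 to Prss2 in the 16 libraries. Right, percent of the family's normalized counts taken by the 6 trypsinogens, with a symbol per library and mean ± SD (n = 4) beside each group; the DMC libraries lie between 49.7% and 56.2%.

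Of the chymotrypsinogens, Ctrb1 and Ctrl lie on mouse chromosome 8 (GRCm38), Ctrb1 at 111686519 to 111691010 and Ctrl at 105932003 to 105933862, both on the minus strand. Their promoters, the 250 bases before the RefSeq gene start (GRCm38.p6), are shown since these genes parted in the Men1 fl/fl groups. Capitals mark matches on either strand to CAGCTG and CACCTG, letters that fit the E-box recognised by the acinar factor Ptf1a and its relatives, and to TTTCCC, a half-site for Rbpjl.
Ctrb1, chr8:111691011-111691260, minus strand: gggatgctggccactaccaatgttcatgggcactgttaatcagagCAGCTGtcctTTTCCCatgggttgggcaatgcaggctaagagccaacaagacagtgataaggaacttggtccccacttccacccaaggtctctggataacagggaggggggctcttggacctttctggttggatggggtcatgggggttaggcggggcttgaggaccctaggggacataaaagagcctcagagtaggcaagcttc
Ctrl, chr8:105933863-105934112, minus strand: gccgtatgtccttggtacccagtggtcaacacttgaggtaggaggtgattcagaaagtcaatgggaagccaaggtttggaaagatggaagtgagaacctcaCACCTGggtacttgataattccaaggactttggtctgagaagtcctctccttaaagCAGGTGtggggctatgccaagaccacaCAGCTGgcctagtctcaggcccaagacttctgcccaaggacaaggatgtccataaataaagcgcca
CAGCTG was found in 12.8% of 27025 mouse promoter windows, CACCTG in 17.1% and TTTCCC in 21.9%. Ctrb1 held CAGCTG and TTTCCC and Ctrl held CAGCTG and CACCTG, the latter at 2 places. The RefSeq promoter table matched 6 of the 10 members. A match of letters is a description and shows no binding.

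No difference in the level of Ctrb1 passed the test. It had 2680240, 1553760, 1441440 and 2177180 normalized counts in WT, 882461, 1649290, 1410760 and 1668460 in DC, 1699170, 1903100, 1462840 and 986296 in MC, and 1316770, 1043470, 2006590 and 1219850 in DMC. The groups overlapped throughout, and the log2 difference of DMC against WT was -0.49 with a 95% interval from -1.88 to 0.90 (limma adjusted p = 0.785). Relative to the mean log2 level of the 10 members Ctrb1 lay 4.29, 4.36, 3.85 and 4.24 above it in WT and 3.57, 3.46, 3.34 and 3.22 above it in DMC, without overlap, a difference of -0.79 ± 0.18 (SE, limma adjusted p = 0.0735).

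Ctrl fell in DMC mice, to 26.3% of WT. It had 647552, 327963, 290203 and 500441 normalized counts in WT, 133632, 309165, 219054 and 379090 in DC, 209444, 205686, 193038 and 92723 in MC, and 137109, 88245, 84572 and 143909 in DMC. Every MC and every DMC library lay below every WT library, and DC overlapped both sides. Ctrl was the 1 member of 10 below WT without overlap in MC, where 3.23% of all genes were, and in DMC, where 3.02% were. In DMC against WT the log2 difference was -1.93 ± 0.41 (SE, limma adjusted p = 0.04), with all 4 DMC below all 4 WT libraries. In MC against WT it was -1.33 ± 0.41 (limma adjusted p = 0.157), in DC against WT -0.79 ± 0.41 (limma adjusted p = 0.486) and in DMC against DC -1.14 ± 0.41 (limma adjusted p = 0.246). The call in DMC against WT was narrow: it ended in 12 of the 16 fits that left out 1 library, with limma adjusted p from 0.0206 to 0.118. Without WT replicates 2 and 3, the libraries with more lymphoid RNA, the difference was -2.37 (limma adjusted p = 0.0576).

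Set against its own family, Ctrl separated more sharply. Relative to the mean log2 level of the 10 members, Ctrl lay 2.24, 2.11, 1.54 and 2.12 above the mean in WT and 1.37, 1.52, 1.23 and 1.78 above it in DC. It lay 0.75, 0.72, 0.93 and 0.19 above it in MC, and at 0.31, -0.11, -1.23 and 0.14 in DMC. All 8 libraries with floxed Men1, at most 0.93, lay below all 8 without it, at least 1.23. Ctrl was the 1 member of 10 with that split, which 0.415% of all genes showed in the same direction. The family mean was subtracted from all those genes, members or not. On levels without that subtraction 0 of 10 members showed the split, and no share over all genes is given for that scale. The limma fit on relative levels called 1 of 10 members lower in DMC against WT, where 0.134% of all genes were, and 1 in DMC against DC, where 0.886% were, each time Ctrl. Ctrl fell by 2.23 on the log2 scale in DMC against WT (SE 0.28, limma adjusted p = 0.000503), and by 1.70 in DMC against DC (SE 0.28, limma adjusted p = 0.00506), where both groups carry Pdx1-Cre Tg and the median of all genes on this scale was -0.56. In MC against WT the relative difference was -1.35 ± 0.28 (limma adjusted p = 0.0715), and in DMC against MC -0.87 ± 0.28 (limma adjusted p = 0.726). On relative levels 3 of 10 members, Try4, Ctrb1 and Ctrl, were lower in DMC than in WT without overlap, as 4.77% of all genes were, on a scale where the median of all genes was -0.32. In DMC against MC 3 of 10, Prss1, Prss3 and Spink1, were higher without overlap (0.211% of all genes) and 2, Ctrb1 and Ctrc, lower (5.11%), with a median of all genes of -0.27. The limma fit on relative levels called 0 of 10 members in the other comparisons: DC against WT (0.00703% of all genes called), MC against WT (0.0492%), MC against DC (0.295%), DMC against MC (0.0141%) and the interaction (0%).

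The family mean holds Ctrc, which differed widely between mice, and with the mean of the other 9 members as reference, chosen after seeing the data, Ctrl in MC reached 0.98 while DC began at 0.76. The 8 and 8 libraries then overlapped, the DMC against WT call held (-1.97, limma adjusted p = 0.00741) and the DMC against DC call ended (-1.48, limma adjusted p = 0.0505). With that reference 15 of 14220 genes were called in DMC against WT and 33 in DMC against DC. By that reference Ctrb1 and Try4 overlapped between DMC and WT: Ctrb1 reached 3.47 in DMC while WT began at 3.28, and Try4 reached 2.38 while WT began at 1.98. Ctrl still lay below WT without overlap, at most 0.21 against at least 0.97. In DMC against MC, Spink1 then overlapped, from -2.93 upward in DMC where MC reached -2.92. Prss1 and Prss3 still lay higher there and Ctrb1 and Ctrc lower without overlap. Prss2 and Try4 then also lay lower in DMC than in MC without overlap. Prss2 was at most 1.90 against at least 1.97, and Try4 at most 2.381 against at least 2.397. No share of all genes without overlap is given for this reference. The ratio of Ctrl to Ctrb1, which needs no family mean, was 11.4% ± 1.68 in MC (SD, n = 4) and 8.72% ± 3.30 in DMC, against 22.1% ± 1.82 in WT and 18.03% ± 3.52 in DC. By that ratio the 8 libraries with floxed Men1, from 4.21% to 13.2%, lay below the other 8, from 15.1% to 24.2%. The ratio rests on the same Ctrl values, was not named in advance and gets no test here, and no share over all genes is given for it.

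**Figure D4:**
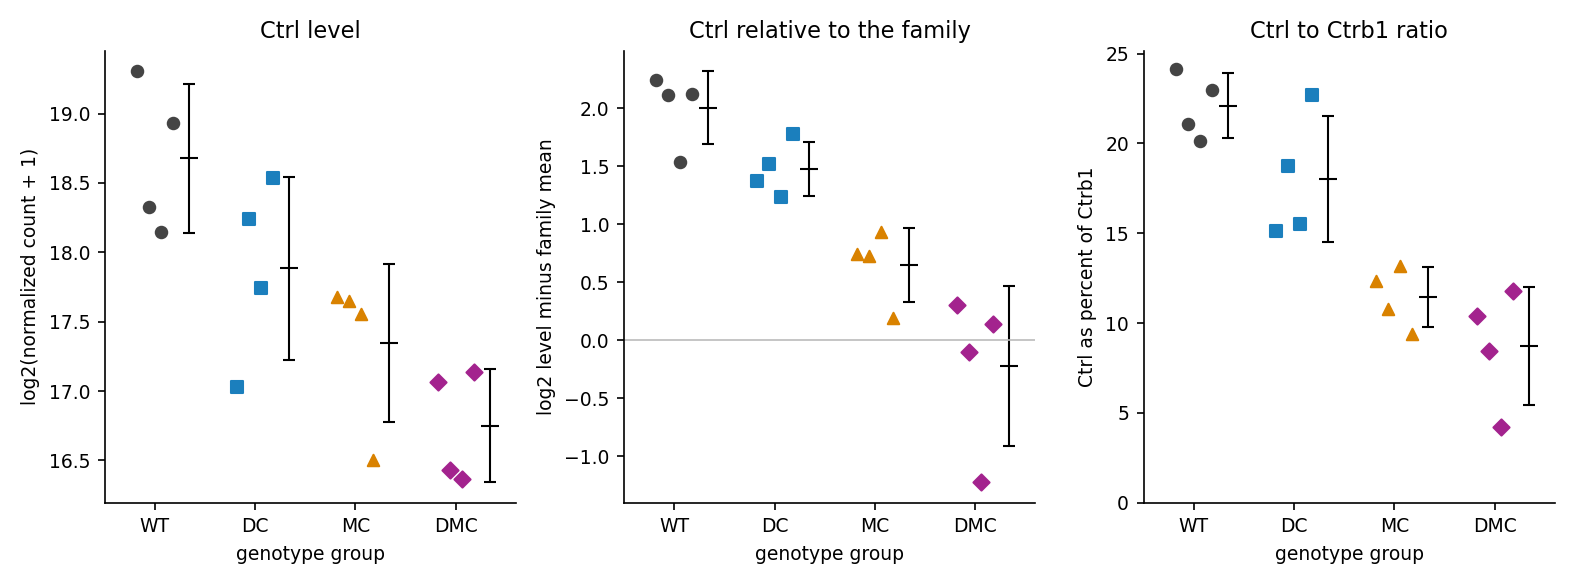
Ctrl by genotype group, as log2(normalized count + 1), as log2 level minus the family mean and as a percent of Ctrb1, with a symbol per library and mean ± SD (n = 4) beside each group. In the middle panel the MC and DMC libraries lie at or below 0.93 and the WT and DC libraries at or above 1.23.

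Markers of another cell type moved with the same groups. The 8 gastric gland markers summed to 3794 to 31841 normalized counts in MC and 3284 to 30334 in DMC, against 228 to 514 in WT and 117 to 760 in DC, with none of the 8 at 0 in a whole group. Pepsinogen C (Pgc), a defining one, averaged 1590 ± 960 in MC and 5325 ± 5098 in DMC against 109 ± 48.2 in WT and 150 ± 84.9 in DC. MC replicate 4, with the lowest Ctrl of MC, had the highest gastric sum, 31841, and DMC replicate 3, with the lowest Ctrl of DMC, the lowest gastric sum of the Men1 fl/fl libraries, 3284. The 8 islet markers had a median log2 difference from WT of 1.26 in DMC, 0.79 in MC and 0.08 in DC, with 0 called, and summed to 10712 to 49309 normalized counts in WT and 33915 to 156107 in DMC. All 7 fibroblast and stellate markers lay above WT in each other group, with 0 called, and summed to 21389 to 25564 in WT, 28356 to 48423 in MC, 32050 to 64150 in DC and 21879 to 37058 in DMC. Of 8 ductal markers 0 were called, with medians of 0.14 in DMC, 0.34 in MC and 0.05 in DC against WT. The part of these cells in the Ctrl result was not tested.

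Ctrc, chymotrypsin C, varied more than any other member, and its variation cut across WT and DC. It lies on mouse chromosome 4 at 141814962 to 141846359 (GRCm38), minus strand, and GENCODE gives 5 transcripts, 2 of them coding, while RefSeq types the mouse gene as a transcribed pseudogene. A coding transcript skips 2 bases, 141845188 to 141845189, that another transcript of the gene spans. That stretch of 42 bases is shown because the transcripts part there, with the skipped bases in capitals.
Ctrc, chr4:141845188-141845189 in capitals, minus strand: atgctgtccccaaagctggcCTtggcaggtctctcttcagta
Ctrc had 5136, 3600, 2869 and 189195 normalized counts in WT, 1180, 57811, 45817 and 3619 in DC, 155560, 139054, 137506 and 83792 in MC, and 59648, 41023, 95318 and 53465 in DMC. The highest library of all was WT replicate 4, and the other WT libraries were among the lowest 5. Within WT the highest was 65.9 times the lowest and within DC 49.0 times, against 1.86 in MC and 2.32 in DMC.

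Relative to the family mean the 16 libraries fell into 3 sets with gaps between them, a description made after the values were seen. In 5 libraries, WT replicates 1, 2 and 3 and DC replicates 1 and 4, Ctrc lay at -5.45 to -4.40. In 6 libraries, DC replicates 2 and 3 and all 4 DMC, it lay at -1.29 to -0.89, and in 5, WT replicate 4 and all 4 MC, at 0.05 to 0.72. The gap was 3.10 between the low and the middle set and 0.94 between the middle and the high set, while no step within a set was above 0.34. Between groups the log2 difference was 3.65 ± 1.25 in MC against WT (SE, limma adjusted p = 0.215), with overlap, and 3.61 ± 1.25 in MC against DC (limma adjusted p = 0.188), the 1 member of 10 higher without overlap, as 4.65% of all genes were. An antisense gene annotated across Ctrc was not analysed here, and whether the counting used strand is not given. Without WT replicate 4 the difference of MC against WT was 5.06 and passed (limma adjusted p = 0.0319). These sizes depend on the scale, since edgeR and DESeq2 compare mean counts. In MC against WT the log2 difference was 1.38 with edgeR (edgeR adjusted p = 0.64) and 1.36 with DESeq2 (DESeq2 adjusted p = 0.656), and in MC against DC it was 2.25 with each (edgeR adjusted p = 0.45, DESeq2 adjusted p = 0.367). In DMC against WT it was 2.57 by limma (limma adjusted p = 0.409), 0.32 with edgeR (edgeR adjusted p = 0.924) and 0.31 with DESeq2 (DESeq2 adjusted p = 0.938).

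The neighbouring elastase gene Cela2a has the same lowest coordinate in the annotation and shares exons with a transcript of Ctrc, and its level did not follow that of Ctrc closely: r was 0.48 over 16 libraries. Cela2a averaged 944949 ± 381667 normalized counts in WT and 858402 ± 163652 in MC. Ranked over 11300 genes, the log2 levels most like that of Ctrc were those of Atp8a2 (r = 0.82), Zfp61 (r = 0.82) and Padi2 (r = 0.81) across the 16 libraries, which share depth and animals. Padi2 is a peptidylarginine deiminase gene on the same chromosome, at 140906344 to 140952586, and averaged 1531 ± 358 normalized counts in MC, 990 ± 601 in WT, 814 ± 129 in DMC and 773 ± 436 in DC.

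**Figure D5:**
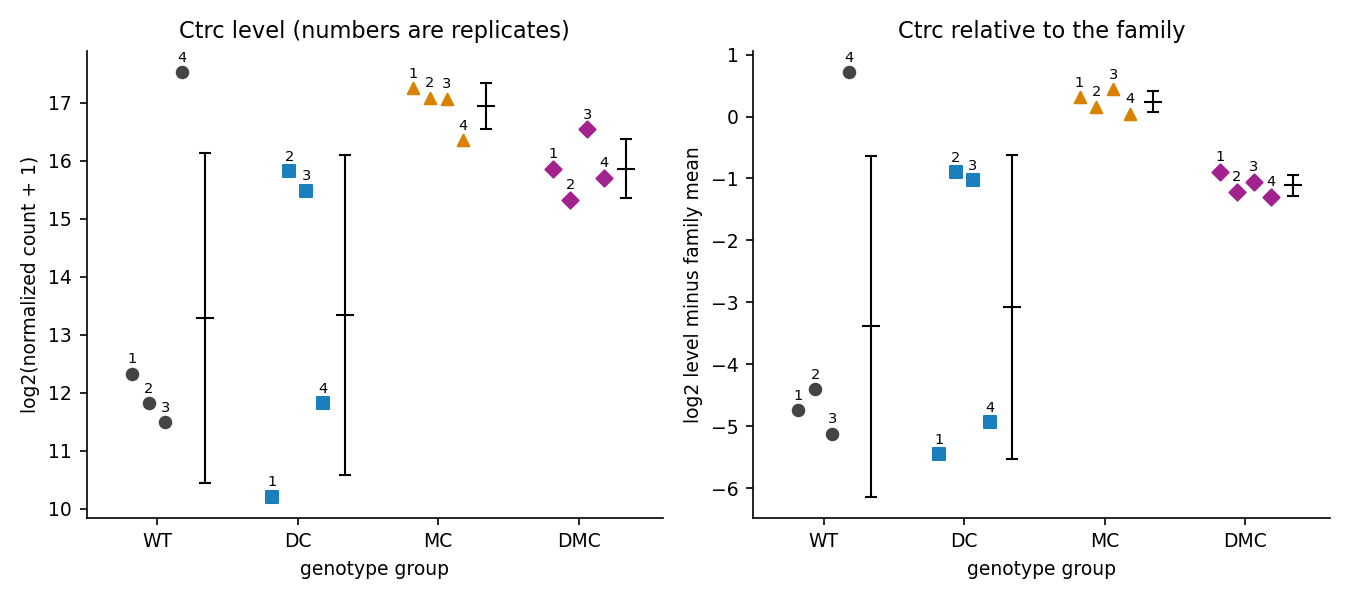
Ctrc in each library, as log2(normalized count + 1) and as log2 level minus the family mean, numbered by replicate, with mean ± SD (n = 4) beside each group. WT replicate 4 lies with the MC libraries and DC replicates 2 and 3 with the DMC libraries, from -1.29 to -0.89 on the relative scale.

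No difference in the level of Spink1, the trypsin inhibitor, passed the test. It had 19875, 13268, 16724 and 13144 normalized counts in WT, 8787, 14836, 8374 and 17727 in DC, 15248, 14944, 12346 and 10633 in MC, and 15566, 14217, 38376 and 20374 in DMC. The highest was DMC replicate 3, which also held the highest Try5, Prss1 and Prss3, and Spink1 overlapped between all groups. Its log2 difference was 0.79 ± 0.30 in DMC against DC (SE, limma adjusted p = 0.269), 0.63 ± 0.30 in DMC against MC (limma adjusted p = 0.895) and 0.39 ± 0.30 in DMC against WT (limma adjusted p = 0.61). Set against the sum of the 6 trypsinogens, Spink1 stood at 1.21% ± 0.173 in DMC (SD, n = 4), against 0.878% ± 0.0554 in MC, 0.974% ± 0.146 in DC and 0.908% ± 0.139 in WT. In DMC that ratio, 0.967% to 1.34%, lay above MC, 0.830% to 0.956%, but overlapped WT and DC. The sum rests mostly on Try4, Prss2 and Try5, the most abundant of the 6. Against the mean log2 level of the 6 trypsinogens, Spink1 lay at -2.84 to -2.58 in DMC and at -2.78 to -2.67 in MC, with overlap. Neither ratio gets a test here, and no share over all genes is given for them. Across libraries the log2 level of Spink1 correlated with that of Try5 at r = 0.89, Try4 at 0.79, Prss3 at 0.72, Prss2 at 0.60, Prss1 at 0.59 and Try10 at 0.52.

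No other listed gene of the pathway passed the test. Of 19 tested acinar enzymes outside the family, 0 were called in any of the 7 contrasts, and 16 of them lay lower than WT in DMC, 18 in DC and 18 in MC. Their median log2 difference from WT was -0.39 for DMC, -0.34 for MC and -0.62 for DC, beside -0.02 over all genes in each. Carboxyl ester lipase (Cel) had 1424810 ± 437952 normalized counts in WT and 1213680 ± 324714 in DMC, and pancreatic lipase (Pnlip) 1593110 ± 600296 and 819229 ± 300496. Of 7 tested acinar transcription factors 0 were called, and 6 lay lower than WT in DC (median -0.06), 3 in MC (0.01) and 7 in DMC (-0.34). Rbpjl, a subunit of the complex that switches on acinar enzyme genes, had 8077 ± 1411 in WT and 5590 ± 2011 in DMC, and Xbp1, which expands the secretory apparatus, 6155 ± 1584 and 5957 ± 1562. Of 10 genes of the zymogen granule and secretion 0 were called, with 10 lower than WT in DC (median -0.36), 9 in MC (-0.12) and 9 in DMC (-0.20). Zg16, a granule lectin, had 233771 ± 89337 in WT and 201701 ± 57000 in DMC, and Gp2, a granule membrane glycoprotein, 118354 ± 59578 and 123209 ± 28465.

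Of 7 genes for zymogen activation and protease receptors 0 were called. Cathepsin L (Ctsl), which can degrade trypsinogen, had 5226 ± 1510 normalized counts in WT, 6466 ± 466 in MC and 6072 ± 774 in DMC. Cathepsin B (Ctsb), which can activate it, had 4326 ± 123 in WT, 4192 ± 281 in MC and 4641 ± 233 in DMC. Of 8 tested serine protease inhibitors other than Spink1 0 were called. Serpini2, a serpin of acinar cells, had 20918 ± 3192 in MC and 22290 ± 5563 in DMC against 33845 ± 9788 in WT, and Spint2, an inhibitor of membrane serine proteases, had 2609 ± 404 in WT and 2333 ± 567 in DMC.

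The genes outside the family whose log2 level was most like the family mean over the 16 libraries were Ttc39a (r = 0.90), Spryd4 (r = 0.88), Tuba4a (r = 0.88), Tex2 (r = 0.88) and Rabggtb (r = 0.87). For Spink1 they were Tuba4a (r = 0.91) and Eif2b1 (r = 0.90). For Ctrl, looked up after its values were seen, they were Gpc1 (r = 0.93), Ehhadh (r = 0.92), Arhgap26 (r = 0.89) and the elastase gene Cela1 (r = 0.89). Cela1 averaged 462867 ± 163372 normalized counts in MC and 466012 ± 135134 in DMC against 1072300 ± 396658 in WT and 626180 ± 240463 in DC, and was not called. These are descriptions of libraries that share animals and depth.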

How the data were processed

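STAR 2.6.0b, DESeq2 and the GRCm38 build are named in the submitters' processing notes; the sources used here name no DESeq2 version, read counter, gene filter or annotation release. Per the labels' protocols the libraries were made with the TruSeq Stranded Total RNA kit. The authors deposited normalized counts, a signal made by dividing gene counts by a size factor per library. All values were whole multiples of a step within 0.01 reads, so reads were recovered (size factors 0.566 to 1.63). Columns were matched to samples by name, and 0 other columns were left out. The labels do not say how animals were paired. Same-numbered libraries deviated together in 11 of 24 pairs, so the numbers were not used as pairs. No library repeated another of its own group within sampling noise.

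Genes with at least 10 normalized counts in at least 4 libraries were tested with limma 3.58.1 (trend, R 4.3.3) on log2(normalized count + 1), all 16 libraries in a single fit, which took in all 10 members. Fold changes are on that scale. Relative levels are log2 levels minus the mean of the 10 members, fitted likewise. Alternatives, besides edgeR 4.0.16 and DESeq2 1.42.0 on recovered reads, covered scaling, filter, pseudocount, weights, groups in the fit, the reference, a replicate block and left-out libraries. The fits were tested on simulated data. P-values measure the spread between these mice. Promoters and the gene type are from RefSeq GRCm38.p6, other annotation from GENCODE mouse release 21. Named were all members, Daxx and Men1, the 5 genes most like the family mean and the 2 most like Spink1 by correlation, and of each list up to 3 called members or else the 2 most abundant; others named were chosen after their values were seen. The members, lists and tests were chosen with earlier results of these data known.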

Additional observations from a re-analysis of the deposited data

Results flagged for a closer look

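For 6 results, of 104 groups of 4 libraries examined (10 members as levels and as relative levels, and 6 log2 ratios between members, in each genotype group), 1 library was set apart from the other 3 by more than a Dixon test at the 95% level allows, against 5.2 that chance would give. The Ctrc level of WT replicate 4 was the highest of its group at 17.53 (log2), with the next at 12.33, and its relative level was 0.72 with the next at -4.40. The Ctrl level of MC replicate 4 was the lowest of its group at 16.50, with the next at 17.56, and that library also held the highest gastric gland marker sum, 31841. The relative level of Prss2 was lowest in DC replicate 3 at 1.57, that of Try5 lowest in WT replicate 4 at 1.12, and that of Ctrb1 highest in DC replicate 1 at 4.09.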

How the results depend on the processing

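The single level call, Ctrl in DMC against WT, ended in 15 of 29 alternatives and held in 14: its count became 0 with a fit restricted to those 2 groups, with the replicate block, and without WT libraries 2 and 3, and ranged from 0 to 1 over the fits without 1 library. DESeq2 gave 1 (Ctrl) in MC against WT (391 of 14220 genes called), 1 (Ctrl) in DMC against DC (345) and 1 (Prss1) in DMC against MC (56). Library quality weights gave 1 (Ctrl) in DMC against DC, where that setting called 1655 of 14220 genes. In MC against WT leaving out 1 library gave 0 to 1, the 1 being Ctrc without WT replicate 4, where 156 of 14220 genes were called. On relative levels leaving out 1 library gave 0 to 1 in MC against WT. The 1 was Ctrl without WT replicate 3 (10 of 14220 genes called) or DMC replicate 3 (23), and Ctrc without WT replicate 4 (14). In DMC against WT it gave 1 to 2, where Ctrb1 was added without WT replicate 3 (19 of 14220 genes called). With no moderation of the spread, chosen after seeing the data, the count was 2 (Ctrb1 and Ctrl) in DMC against WT, where 41 of 14220 genes were called. In DMC against DC it was 2, where 173 genes were called, only 6 of them higher. With a reference lacking Ctrc, also chosen then, it was 0 in DMC against DC, where 33 genes were called. The cause of these changes was not tested. No member's log2 difference of at least 1 changed direction in any alternative. Same-numbered libraries correlated at -0.37 to 0.38, and 1 library correlated best with its own number, so the block, which changed no other count, compares nothing known to be paired. Scaling alternatives moved the median of all genes by less than 0.1. Such scaling centres the bulk of genes by construction, so that median is no check on the members. With 4 mice a group the spread of Ctrc, Prss1 and Prss3 limits what could pass.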
